A study of Mus musculus with 18 samples.

Results

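Saa3, Lcn2, Hp, Ptx3, Wfdc17, Wfdc21 and Slpi encode secreted proteins of the acute-phase response and of the WAP (whey acidic protein) domain family. They are 7 of the 25926 genes in the expression table, found by their symbols. The 7 genes were chosen by name when their differences between NC, COM and COM+Met in these same samples were already known, so their levels and differences are given as a description and carry no test. RNA-seq was performed on mouse bone marrow-derived macrophages (BMDMs) from C57BL/6 mice, grown for 7 days in 50 ng/mL M-CSF, the growth factor that drives marrow precursors to become macrophages. The BMDMs were held in a Transwell insert with 0.4 µm pores above primary renal tubular epithelial cells (TECs) from wild-type mice, so that soluble factors but not cells could pass. NC comprised BMDMs given PBS and cocultured with untreated TECs. COM comprised BMDMs given PBS and cocultured with TECs exposed for 24 h to 100 µg/mL calcium oxalate monohydrate, the commonest crystal of kidney stones. COM+Met comprised BMDMs cocultured with such COM-treated TECs and themselves given 5.0 mM of an agent that the labels write only as Met for 24 h. Each group held 6 samples, and no group received Met without COM. Nothing in the labels tells whether replicates are different mice, cultures or preparations, so the spread within a group may be technical, and the p-values given for other genes measure only that spread.

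Acute-phase proteins are plasma and tissue proteins whose production climbs within hours to days of infection or injury, mostly in the liver under the control of interleukin 6 and interleukin 1, and several of them are also made by activated macrophages. Saa3 is a mouse serum amyloid A made largely outside the liver, Lcn2 (lipocalin 2) withholds iron from bacteria by binding their siderophores, Hp (haptoglobin) captures free haemoglobin, and Ptx3 is the long pentraxin that marks microbes and dead cells for uptake. The WAP domain is a small fold held together by disulfide bonds and found in secreted inhibitors of serine proteases and in antimicrobial proteins. Slpi, the secretory leukocyte protease inhibitor, blocks neutrophil elastase and dampens NF-kappa B signalling, and Wfdc17 and Wfdc21 are small WAP-domain proteins of mouse myeloid cells. Lcn2, Hp and Slpi are also stored in neutrophil granules.

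Values are FPKM, which divide a gene's fragments by its length and by the sample's total and so allow levels to be compared between genes. The read depth behind them is not known, so no counting interval or detection limit is given, and FPKM is relative, so that a gene can sit lower because others are higher. The 18 samples had summed values of 380731 to 449186 FPKM. NC-5 and NC-6 stood apart from the other NC samples, with correlations of log2 values with NC-1 to NC-4 of 0.938 to 0.962 against 0.993 with each other, and COM-1 to COM-3 correlated with COM-4 to COM-6 at only 0.888 to 0.951, whereas the COM+Met samples correlated at 0.989 to 0.995. COM-6 also stood apart by itself, with correlations of 0.888 to 0.935 with the other 5 COM samples. The main differences are therefore also given without NC-5 and NC-6 or without COM-4 to COM-6. All 10 macrophage markers were detected and summed to between 10716 and 17211 FPKM in every sample. Most of the sum was Lyz2, with means of 11610, 9517 and 12776 FPKM in NC, COM and COM+Met, so it says little of the other markers. By the rule given further on, 3 of the 10, Fcgr1, Cd14 and Adgre1, were called higher in COM and in COM+Met than in NC. Limma called 0 of the 10 in COM+Met against COM (6 at an unadjusted p below 0.05). Of 19 tubular epithelial markers, 17 were below 1 FPKM in every sample, and their sum was 11.0 to 18.4 FPKM in NC, nearly all Cdh1 (mean 12.9, called lower in both other groups), against 0.484 to 1.37 in COM and 0.060 to 0.332 in COM+Met. In bulk RNA, fewer cells of a type and less RNA per cell cannot be told apart.

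**Figure D1:**
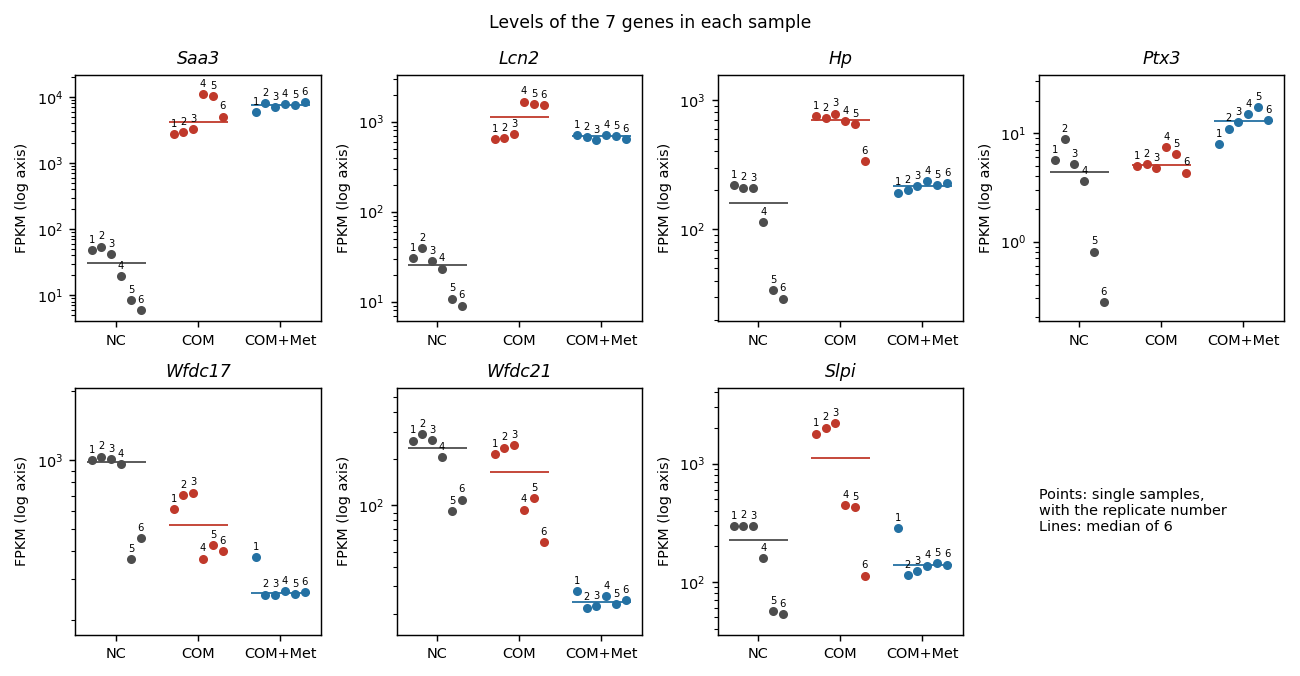
FPKM of the 7 genes in each of the 18 samples on log axes, with the replicate number above each point and a line at the median of 6. Saa3 and Lcn2 in COM and COM+Met lie above every NC sample, Wfdc21 in COM+Met lies below every other sample, and NC-5 and NC-6 are below NC-1 to NC-4 in all 7 panels.

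Saa3 (ENSMUSG00000040026; chr7:46711998-46715700, minus strand, 4 exons, all positions here being GENCODE M21 on GRCm38) stood at a moderate level in NC and among the highest of all genes in COM and COM+Met. In NC it ran from 6.02 to 54.4 FPKM with a median of 30.7, in COM from 2731 to 10909 with a median of 4139, and in COM+Met from 5845 to 8350 with a median of 7675. The NC samples did not overlap with either of the other groups, whereas COM and COM+Met overlapped, since COM-4 (10909) and COM-5 (10410) were above every COM+Met sample and the other 4 COM samples below. By mean, Saa3 ranked 2182 of all genes in NC and 6 in both COM and COM+Met. The mean was 29.7 ± 21.1 FPKM in NC, 5877 ± 3798 in COM and 7417 ± 904 in COM+Met (SD, n = 6 each), so that COM stood 198 times above NC. On the log2(FPKM + 1) scale COM was 7.74 (SE 0.57) above NC and COM+Met was 0.57 (SE 0.35) above COM. The first was 6.98 without NC-5 and NC-6 and 7.00 without COM-4 to COM-6, and the second was 1.32 without COM-4 to COM-6. Saa3 alone accounted for 0.0014 to 0.0128% of the summed FPKM of an NC sample, 0.647 to 2.43% in COM and 1.33 to 1.89% in COM+Met. Other serum amyloid A genes were near 0, with at most 0.669 FPKM for Saa1, 0.018 for Saa4 and 0 for Saa2 in any sample. Of the 506 stretches of 50 bases in the Saa3 transcript, 9 also occur in Saa1, so few reads could have been shared between them.

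Lcn2 (ENSMUSG00000026822; chr2:32384633-32388252, minus strand, 6 exons) was likewise far higher in COM and COM+Met than in NC, at a lower level than Saa3 in both, but COM+Met lay above COM by median for Saa3 and below it for Lcn2. It measured 9.03 to 39.1 FPKM in NC (median 25.8), 640 to 1672 in COM (median 1127) and 628 to 712 in COM+Met (median 686). Every COM and COM+Met sample was above every NC sample, and within COM the values formed 2 levels, with 640, 653 and 721 FPKM in COM-1 to COM-3 and 1672, 1580 and 1533 in COM-4 to COM-6. The COM+Met samples sat at the lower of these levels. Its mean was 23.5 ± 11.7 FPKM in NC, 1133 ± 509 in COM and 678 ± 34.9 in COM+Met (SD, n = 6 each), and it ranked 2782, 36 and 63 among all genes. COM exceeded NC by 5.57 (SE 0.39) on the log2 scale, or 5.07 without NC-5 and NC-6 and 4.95 without COM-4 to COM-6, and COM+Met differed from COM by -0.61 (SE 0.26). Without COM-4, COM-5 and COM-6 the difference between COM+Met and COM was 0.01, so its direction rested on those 3 samples.

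Within a sample the ratio of Saa3 to Lcn2 separated the 3 groups. It was 0.667 to 1.58 in NC (median 1.11), 3.29 to 6.59 in COM (median 4.48) and 8.22 to 12.9 in COM+Met (median 11.0), with no overlap between any pair of groups. The ratio is not affected by the scaling of a sample to its total, and it shows that the 2 genes did not move by the same factor. COM-6, with the lowest ratio in COM, had 5052 FPKM of Saa3 beside 1533 of Lcn2.

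**Figure D2:**
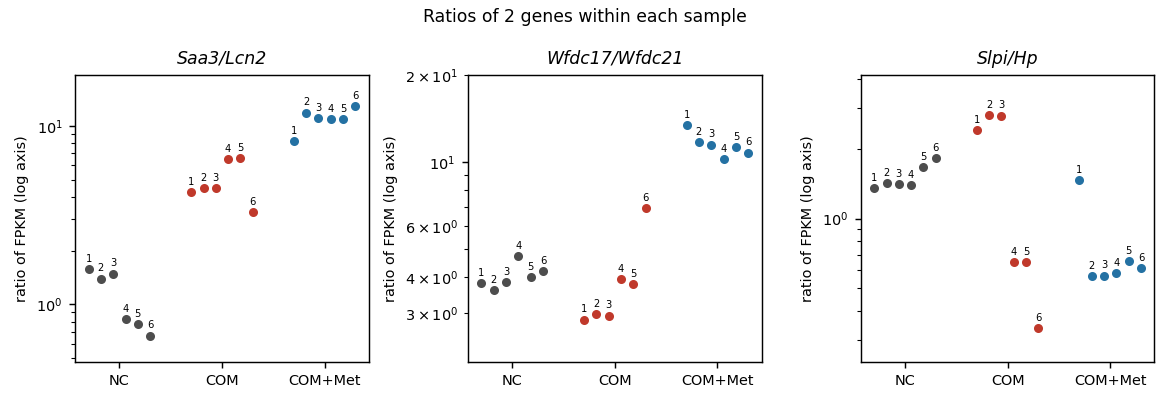
Ratios of FPKM within each sample on log axes, numbered by replicate, for Saa3 to Lcn2, Wfdc17 to Wfdc21 and Slpi to Hp. The first ratio does not overlap between any of the 3 groups, the second is 10.2 to 13.4 in COM+Met against at most 6.93 elsewhere, and the third spreads from 0.337 to 2.80 within COM.

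Hp (ENSMUSG00000031722; chr8:109575128-109579172, minus strand, 5 exons) was highest in COM. It ran from 29.3 to 218 FPKM in NC (median 161), from 335 to 783 in COM (median 703) and from 193 to 235 in COM+Met (median 217). COM overlapped with neither of the other groups, and the COM+Met samples lay at the top of the NC range, 3 of 6 of them above every NC sample. The means were 136 ± 89.3, 653 ± 162 and 215 ± 16.2 FPKM (SD, n = 6 each), which put COM 4.82 times above NC and 3.04 times above COM+Met. The log2 difference was 2.62 (SE 0.51) between COM and NC, -1.55 (SE 0.18) between COM+Met and COM, and 1.07 (SE 0.49) between COM+Met and NC. Without NC-5 and NC-6 the first was 1.79 and the last 0.24, and without COM-4 to COM-6 the first was 2.87 and the second -1.80.

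Ptx3 (ENSMUSG00000027832; chr3:66219910-66225805, plus strand, 3 exons) was the least abundant of the 7 and the only one whose lowest COM+Met sample exceeded its highest COM sample. It measured 0.275 to 8.87 FPKM in NC (median 4.38), 4.32 to 7.49 in COM (median 5.08) and 7.92 to 17.4 in COM+Met (median 12.9). NC and COM overlapped, and the lowest COM+Met sample, COM+Met-1, was the one COM+Met sample below the highest NC sample. The means were 4.07 ± 3.23, 5.53 ± 1.19 and 12.8 ± 3.25 FPKM (SD, n = 6 each). COM+Met was 1.07 (SE 0.17) above COM and 1.74 (SE 0.44) above NC on the log2 scale, and COM was 0.68 (SE 0.43) above NC. The difference between COM and NC was -0.03 without NC-5 and NC-6, whose values were 0.807 and 0.275 FPKM. The gene lies within Veph1, which stayed at or below 0.016 FPKM in every sample.

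Wfdc17 (ENSMUSG00000069792; chr11:83703991-83706268, plus strand, 3 exons) was the most abundant of the 7 in NC. It ran from 367 to 1037 FPKM in NC (median 981), from 370 to 722 in COM (median 518) and from 258 to 376 in COM+Met (median 262). The 4 highest values of all were NC-1 to NC-4 at 961 to 1037, whereas NC-5 (367) and NC-6 (457) were at the level of the COM samples, so NC and COM overlapped. In COM+Met, 5 of 6 samples were between 258 and 266 and below every NC and COM sample, and COM+Met-1 was at 376. The means were 806 ± 307, 538 ± 159 and 280 ± 47.2 FPKM (SD, n = 6 each). The log2 differences were -0.52 (SE 0.30) for COM against NC, -0.90 (SE 0.19) for COM+Met against COM and -1.42 (SE 0.26) for COM+Met against NC. Without NC-5 and NC-6 the difference between COM and NC was -0.95, and without COM-4, COM-5 and COM-6 it was -0.14.

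Wfdc21 (ENSMUSG00000051748; chr11:83746940-83752642, plus strand, 3 exons) starts 40671 bases beyond the end of Wfdc17 and was lowest in COM+Met. It measured 91.9 to 288 FPKM in NC (median 234), 57.7 to 246 in COM (median 164) and 21.9 to 28.1 in COM+Met (median 23.8). The 6 COM+Met samples lay below all 12 others, while NC and COM overlapped. The means were 203 ± 84.4, 160 ± 81.7 and 24.4 ± 2.36 FPKM (SD, n = 6 each), and COM was 6.58 times above COM+Met. The log2 difference was -2.49 (SE 0.32) between COM+Met and COM, -2.89 (SE 0.26) between COM+Met and NC, and -0.40 (SE 0.41) between COM and NC. The last was 0.32 without COM-4, COM-5 and COM-6 and -0.84 without NC-5 and NC-6.

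The Wfdc17 and Wfdc21 profiles were alike apart from COM+Met and COM-6. In COM-6 the ratio of Wfdc17 to Wfdc21 was 6.93, against 2.84 to 3.93 in the other COM samples. The ratio of Wfdc17 to Wfdc21 was 3.60 to 4.70 in NC (median 3.92), 2.84 to 6.93 in COM (median 3.37) and 10.2 to 13.4 in COM+Met (median 11.4), so Wfdc21 was lower relative to its neighbour in each COM+Met sample than in any other. Wfdc18, a WAP-domain gene between them, had means of 1.44, 0.850 and 0.464 FPKM in NC, COM and COM+Met. The chemokine genes Ccl3 and Ccl4, which lie on the other side of Wfdc17 within 100 kb, had means of 135, 299 and 428 FPKM and of 40.2, 42.5 and 80.5 FPKM in the same order.

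Slpi (ENSMUSG00000017002; chr2:164354070-164389095, minus strand, 4 exons) varied most among the COM samples. It ran from 53.4 to 299 FPKM in NC (median 227), from 113 to 2186 in COM (median 1119) and from 113 to 282 in COM+Met (median 138). COM-1, COM-2 and COM-3 were at 1794, 2017 and 2186 FPKM, COM-4 and COM-5 at 445 and 425, and COM-6 at 113, so 5 of 6 COM samples were above every NC sample and COM-6 was within the NC range. COM-6 was also below every COM+Met sample. The means were 193 ± 119, 1163 ± 931 and 156 ± 62.7 FPKM (SD, n = 6 each), and the highest COM sample was 19.4 times the lowest. COM was 2.28 (SE 0.75) above NC on the log2 scale, or 1.55, no longer called, without NC-5 and NC-6 and 3.70 without COM-4, COM-5 and COM-6. COM+Met differed from COM by -2.32 (SE 0.64), or -3.74 without those 3 COM samples, and from NC by -0.04 (SE 0.46), the sign of which turned with size-factor scaling (0.25), or -0.77 without NC-5 and NC-6. The ratio of Slpi to Hp was 1.35 to 1.82 in NC (median 1.42), 0.337 to 2.80 in COM (median 1.53) and 0.565 to 1.47 in COM+Met (median 0.597).

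**Figure D3:**
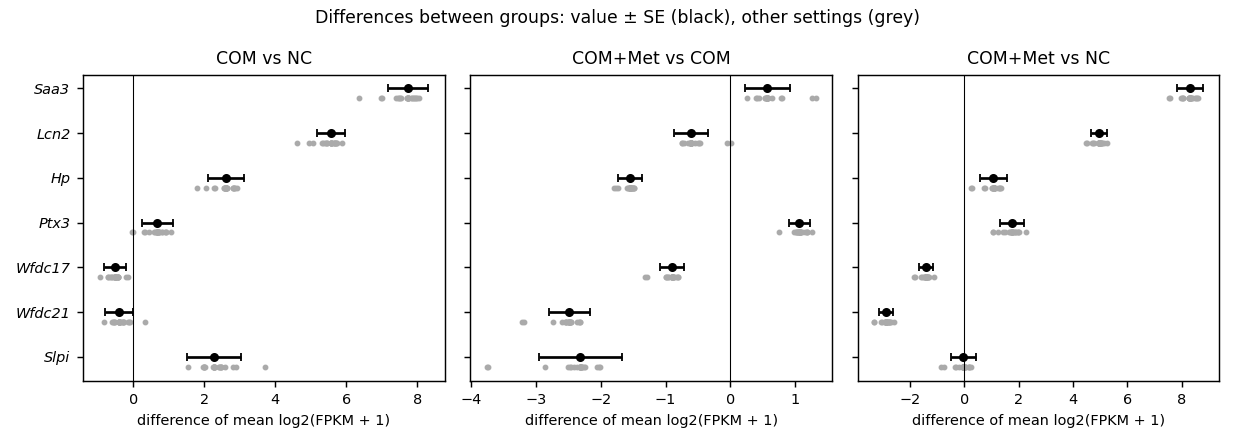
Differences of mean log2(FPKM + 1) for the 7 genes in COM against NC, COM+Met against COM and COM+Met against NC, with black points and bars for the value and its SE and grey points for the other processing settings. Saa3 and Lcn2 stand furthest to the right against NC, and the Lcn2, Ptx3, Wfdc21 and Slpi differences each cross 0 under some setting in 1 of the 3 comparisons.

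Counts over the 7 genes are set beside those over all genes tested, and nothing is read from them, since the same contrasts chose the genes. A gene was called where limma's adjusted p was below 0.05 and the difference at least 2-fold, among genes averaging 1 FPKM or more, a filter that all 7 passed in each comparison. In COM against NC, 4 of the 7 were called higher (Saa3, Lcn2, Hp, Slpi) and 0 lower, beside 5.99% and 11.7% of the 10900 genes tested, and 3 did not overlap upwards and 0 downwards, beside 8.6% and 29.7%. In COM+Met against COM, 1 was called higher (Ptx3) and 3 lower (Hp, Wfdc21, Slpi), beside 0.608% and 1.61% of 10364, and 1 and 2 did not overlap, beside 5.83% and 5.34%. In COM+Met against NC, 3 were called higher (Saa3, Lcn2, Ptx3) and 2 lower (Wfdc17, Wfdc21), beside 5.66% and 13.6% of 10786, and 2 and 1 did not overlap, beside 14.1% and 43.6%. The comparisons share samples and are only set side by side. The median log2 difference of all genes tested was -0.27 in COM against NC, 0.0033 in COM+Met against COM and -0.26 in COM+Met against NC, so relative to it Saa3 was 8.01 and Wfdc17 -0.25 in COM against NC. With size factors, the share of calls that were higher went from 33.9% to 51.3% in COM against NC and from 29.4% to 45.8% in COM+Met against NC.

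Together the 7 genes made up 0.133 to 0.457% of the summed FPKM of an NC sample (median 0.401%), 1.60 to 3.16% in COM (median 1.90%) and 1.70 to 2.19% in COM+Met (median 2.08%). NC did not overlap with the other groups, and Saa3 was the largest single part in each COM and COM+Met sample. In NC the largest part was Wfdc17.

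All 7 genes differed in the same direction between the 2 sets of NC samples, but not between the 2 sets of COM samples. These sets also stood apart over all genes. The share of all genes split without overlap was not counted, so nothing is read from the number of genes split here. NC-5 and NC-6 were below NC-1 to NC-4 in all 7, and the mean of NC-1 to NC-4 exceeded that of NC-5 and NC-6 by 10.8 times for Ptx3, 5.92 for Hp, 5.70 for Saa3, 4.75 for Slpi, 3.06 for Lcn2, 2.53 for Wfdc21 and 2.43 for Wfdc17. Between the 2 sets of COM samples the genes went opposite ways. Saa3 and Lcn2 were 2.97 and 2.38 times higher in COM-4 to COM-6, whereas Slpi, Wfdc21, Wfdc17 and Hp were 6.10, 2.64, 1.70 and 1.34 times higher in COM-1 to COM-3, each without overlap, and Ptx3 overlapped. The labels name no batch that would divide either group.

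A sum of neutrophil granule markers was set beside these values. The sum of 16 such markers was 565 to 1059 FPKM in NC (median 920), 198 to 628 in COM (median 421) and 92.7 to 151 in COM+Met (median 112). NC-5 and NC-6 had 565 and 581 FPKM against at least 919 in the other NC samples, and COM-4 to COM-6 had 198 to 253 against 590 to 628 in COM-1 to COM-3. The most abundant was Mmp8, a collagenase of neutrophils, at 336, 175 and 68.7 FPKM on average. S100a8 averaged 254, 169 and 23.5 FPKM and S100a9 171, 8.43 and 1.30, so a few genes made up most of the sum. Of the 16 markers, 3 were below 1 FPKM in every sample, namely Ly6g, Mpo and Retnlg, at most 0.257, 0.263 and 0.307 FPKM. Among the others, Ngp, Cd177 and Stfa2l1 averaged 30.9, 10.2 and 6.92 FPKM in NC. They averaged 1.60, 2.64 and 0.601 FPKM in COM and 0.161, 1.18 and 0.030 in COM+Met. Of the 13 markers tested in COM against NC, 10 were below 0 and 3 above. These were Camp, Csf3r and Mmp9, with means of 4.33, 9.68 and 5.14 FPKM in NC and 7.93, 12.6 and 32.6 in COM. Of the 13 markers tested in COM against NC, 7 were called lower and 1, Mmp9, higher, of 7 tested in COM+Met against COM 5 were called lower and 0 higher, and of 13 in COM+Met against NC 9 were lower and 0 higher. Between these sets of samples, Wfdc17, Wfdc21, Hp and Slpi were lower where the sum was lower, in NC and in COM alike. Saa3 and Lcn2 were lower in NC-5 and NC-6 but higher in COM-4 to COM-6. All 7 genes, Ptx3 among them, were lower in NC-5 and NC-6. Hp in COM-4 and COM-5 (685 and 653 FPKM) was close to COM-1 to COM-3 (720 to 783), with COM-6 at 335. From NC to COM, Hp and Slpi went against the sum, with medians of 161 and 227 FPKM in NC and 703 and 1119 in COM. From COM to COM+Met they fell as the sum did, to medians of 217 and 138 FPKM. Lcn2 had the same pattern (25.8, 1127 and 686). The medians of Wfdc17 (981, 518 and 262) and Wfdc21 (234, 164 and 23.8) fell with the sum through the 3 groups. Those of Saa3 and Ptx3 rose through the 3 groups. The order of single samples followed the sum only in part. COM-6, with 253 FPKM against 198 in COM-4 and COM-5, had the lowest Slpi and Wfdc21 of COM. In NC and in COM+Met, the sample with the highest sum (NC-2 and COM+Met-1) also had the highest Slpi, Wfdc17 and Wfdc21. In COM the highest sum was in COM-1 and the highest values of these genes in COM-3. The part of neutrophil RNA in these values was not tested.

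**Figure D4:**
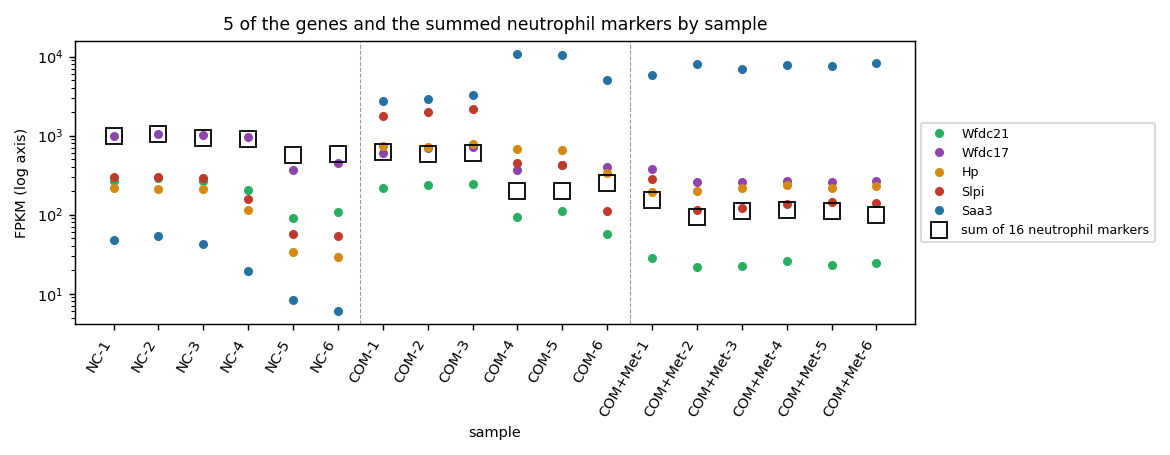
FPKM on a log axis of 5 of the genes (coloured circles) and the sum of 16 neutrophil granule markers (open black squares) in each of the 18 samples, with dashed lines between groups. The sum runs from 92.7 to 1059 FPKM and is lower in NC-5, NC-6 and COM-4 to COM-6 than in the rest of their groups, as are Wfdc17, Wfdc21, Hp and Slpi, while Saa3 is higher in COM-4 to COM-6.

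Likeness between profiles was taken as the root-mean-square difference of standardised log2 values over the 18 samples, where 0 is the same shape. Among the 7 genes, Saa3 and Lcn2 were most alike (0.169), followed by Wfdc17 and Wfdc21 (0.358) and by Hp and Slpi (0.582), and Saa3 and Wfdc17 were least alike (1.74). Of 10314 genes, those closest to Saa3 were Oas1g (0.088), Oas3 (0.097) and Isg15 (0.099), all genes of the interferon response, and those closest to Lcn2 were Siglece (0.089), Pfkfb3 (0.098) and Slc25a37 (0.107). The closest to Hp were Ass1 (0.154), Ly6c2 (0.210) and Gpr84 (0.235), where Ass1 makes argininosuccinate and Ly6c2 marks inflammatory monocytes. Ptx3 had no close match, with Anpep (0.314), Tlr2 (0.316) and Phlpp1 (0.336) the nearest. Arrdc4 was among the nearest to both Wfdc17 (0.201, before Clec4n at 0.235 and Mturn at 0.238) and Wfdc21 (0.254, between Ccl9 at 0.251 and Nqo1 at 0.263). The nearest to Slpi were Slc39a4 (0.218), Map3k14 (0.297) and Mmp9 (0.299). The samples share their groups and their splits, and these values describe shape only.

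Saa3 and Lcn2 had the most alike profiles among the 7 genes, although they did not move by the same factor. The 250 bases before the annotated start were therefore searched for letter matches to elements known from acute-phase promoters, on both strands. RefSeq promoters (GRCm38.p6) matched 5 of the 7 genes, namely Saa3, Lcn2, Ptx3, Wfdc17 and Slpi. The C/EBP motif TTGCNNAA occurred in 4 of the 5, at -99 to -92 from the start in Saa3 (TTATGCAA), -216 to -209 in Lcn2 (TTGCTCAA, which lies in an annotated exon of a longer Lcn2 transcript that starts further upstream), -57 to -50 in Ptx3 (TTGTGCAA) and -241 to -234 in Slpi (TTGAGCAA), and in 9.55% of the 27025 promoters in the table. The interferon-stimulated element GAAANNGAA occurred in Saa3 alone, at -125 to -117 (GAAAGAGAA), and in 7.16% of all promoters. AP-1 (TGANTCA, 6.87% of all), STAT (TTCNNNGAA, 7.18%) and kappa B motifs (7.01%) had no match among the 5. These are matches of letters in these windows and show no binding. The matches did not overlap each other, and their part in the levels of these genes was not tested. The stretches outside annotated exons are shown here for Saa3, the gene furthest above NC, for Ptx3 and Slpi as genes with the same motif and other profiles, and for Wfdc17, which had no match, 5′ to 3′ with motif matches in capitals. They are chr7:46715701-46715926 (minus strand), chr3:66219637-66219886 (plus), chr2:164356508-164356757 (minus, within the longest annotated Slpi transcript) and chr11:83703806-83703990 (plus).
Saa3: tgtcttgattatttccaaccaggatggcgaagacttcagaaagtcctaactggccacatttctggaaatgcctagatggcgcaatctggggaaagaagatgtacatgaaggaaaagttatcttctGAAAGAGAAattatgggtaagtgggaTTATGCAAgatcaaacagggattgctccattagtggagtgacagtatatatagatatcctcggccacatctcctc
Ptx3: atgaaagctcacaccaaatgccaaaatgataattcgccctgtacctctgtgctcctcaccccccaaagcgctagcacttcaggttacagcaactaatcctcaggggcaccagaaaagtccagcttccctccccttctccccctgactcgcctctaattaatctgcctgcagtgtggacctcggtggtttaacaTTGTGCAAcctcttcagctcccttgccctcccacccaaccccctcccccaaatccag
Slpi: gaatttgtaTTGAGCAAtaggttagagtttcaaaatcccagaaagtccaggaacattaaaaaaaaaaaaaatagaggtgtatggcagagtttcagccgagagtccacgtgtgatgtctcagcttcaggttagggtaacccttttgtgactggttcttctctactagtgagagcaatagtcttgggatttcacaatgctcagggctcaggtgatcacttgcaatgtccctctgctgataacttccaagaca
Wfdc17: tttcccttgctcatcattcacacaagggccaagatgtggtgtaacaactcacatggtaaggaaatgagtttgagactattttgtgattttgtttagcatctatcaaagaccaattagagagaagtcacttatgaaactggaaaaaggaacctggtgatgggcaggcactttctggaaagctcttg

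Few other WAP-domain, lipocalin or pentraxin genes were expressed. Of 21 other WAP-domain and whey genes, 19 were below 1 FPKM in every sample and 10 of these were at 0 throughout, and the highest was Wfdc18 at 2.37 FPKM. Of 19 other lipocalins and pentraxins, 17 were below 1 FPKM in every sample. In COM against NC, 1 gene of each of these lists passed the filter and limma called neither, although 1 of them, C8g, had an unadjusted p below 0.05. Of 33 other acute-phase genes, 19 were below 1 FPKM in every sample, among them Crp and Apcs, the short pentraxins of plasma, and Serpina3n. Others were abundant, the highest being Cfb at up to 1580 FPKM.

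Among the other acute-phase genes that could be tested, limma called 5 of 10 higher and 2 lower in COM against NC (median log2 difference 1.05). It called 0 of 12 higher and 2 lower in COM+Met against COM (median 0.11), where 6 had an unadjusted p below 0.05. In COM+Met against NC it called 5 of 10 higher and 3 lower (median 1.10). By direction alone, 8 of 10, 7 of 12 and 7 of 10 were above 0, in that order. The shares of all genes called in each comparison are given above. The filter averages over both groups, so Orm1 and Cp, at 0.451 and 0.667 FPKM in NC, passed only through the group where they were higher. Both are among the genes called higher in COM and in COM+Met against NC, so these counts and medians lean upward. Orm1, a plasma orosomucoid, went from 0.451 ± 0.231 FPKM in NC to 29.6 ± 9.67 in COM (log2 difference 4.35, SE 0.19, limma adjusted p = 1.26e-08) and 40.9 ± 10.8 in COM+Met. Cfb, complement factor B, went from 108 ± 66.8 to 1428 ± 326 FPKM (3.95, SE 0.41, adjusted p = 7.85e-06), and both genes were higher in 6 of 6 COM samples than in any NC sample. Cd14, the lipopolysaccharide coreceptor, rose by 2.82 (SE 0.40, adjusted p = 2.98e-05) in COM+Met against NC. The metallothionein Mt2 fell from 200 ± 78.0 to 23.6 ± 4.69 FPKM in COM (-2.97, SE 0.22, adjusted p = 5.73e-07). Il1rn, the interleukin 1 receptor antagonist, was called higher in COM, at 558 ± 294 FPKM, than in NC, at 249 ± 67.1, and fell in COM+Met against COM to 247 ± 33.1 FPKM (-1.003, SE 0.31, adjusted p = 0.047), a call that 16 of 23 other settings lost.

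Of the receptors and binding partners of these proteins, 2 of 18 were called higher and 6 lower in COM against NC (median -0.85). In COM+Met against COM, 3 of 16 were called higher and 2 lower (median -0.05). In COM+Met against NC, 3 of 18 were called higher and 6 lower (median -0.47). Fpr2, a formyl peptide receptor that binds serum amyloid A, rose from 166 ± 88.4 to 549 ± 34.9 FPKM in COM (1.94, SE 0.35, adjusted p = 0.000556). Scarb1, a scavenger receptor that also binds serum amyloid A, fell from 90.7 ± 22.5 to 33.8 ± 20.7 FPKM (-1.64, SE 0.40, adjusted p = 0.0044). Its call was lost without COM-4, COM-5 and COM-6 and with sample weights. Plscr4, a phospholipid scramblase, fell from 6.95 ± 2.85 to 0.486 ± 0.121 FPKM (-2.35, SE 0.20, adjusted p = 1.38e-06). The C1q chains, which bind pentraxins, rose in COM+Met against COM by 1.96 (C1qb, SE 0.36, adjusted p = 0.00384), 1.82 (C1qa, SE 0.34, adjusted p = 0.00465) and 1.75 (C1qc, SE 0.31, adjusted p = 0.00336), with group ranges that overlapped, and the C1qa call was lost with pseudocount 5. The scavenger receptor Cd36 fell by 2.65 (SE 0.20, adjusted p = 7.26e-08) and the annexin Anxa2, which can bind Slpi at the cell surface, fell by 2.05 (SE 0.10, adjusted p = 1.81e-09) in COM+Met against NC. The haptoglobin receptor Cd163 was at most 0.553 FPKM in any sample, and the lipocalin 2 receptors Slc22a17 and Lrp2 were at most 0.492 and 0.00871 FPKM.

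Of the proteases and other protease inhibitors, 3 of 15 were called higher and 4 lower in COM against NC (median 0.08). In COM+Met against COM, limma called 0 of 12 higher and 1 lower (median -0.36), with 6 at an unadjusted p below 0.05. In COM+Met against NC, 3 of 14 were called higher and 6 lower (median -0.35). The neutrophil elastase gene Elane, whose product Slpi blocks, was at 0 to 1.07 FPKM in NC and at 0 in every COM and COM+Met sample. Cst7, an inhibitor of lysosomal cysteine proteases, rose from 2.87 ± 1.80 to 64.9 ± 28.4 FPKM in COM (4.10, SE 0.35, adjusted p = 1.49e-06) and was at 74.5 ± 11.1 in COM+Met. Serpinb6b rose from 1.41 ± 0.355 to 12.3 ± 5.19 FPKM (2.36, SE 0.25, adjusted p = 9.06e-06). Serpinb1a, an inhibitor of neutrophil serine proteases, fell from 20.8 ± 17.1 to 1.25 ± 0.461 FPKM (-2.96, SE 0.40, adjusted p = 6.66e-05), and Serpinb2 fell from 95.3 ± 45.2 in COM to 23.4 ± 5.44 FPKM in COM+Met (-1.86, SE 0.29, adjusted p = 0.00159), a call lost in a fit of all 18 samples. Mcpt8, a basophil protease, averaged 4.87 ± 1.20 FPKM in NC and was listed at 0 in all 6 COM+Met samples.

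Of the cytokines that induce acute-phase genes and their receptors, 3 of 15 were called higher and 2 lower in COM against NC (median 0.06). In COM+Met against COM, 1 of 15 was called higher and 2 lower (median -0.11). In COM+Met against NC, 5 of 14 were called higher and 2 lower (median -0.12). Il1b went from 86.8 ± 78.5 FPKM in NC to 535 ± 67.8 in COM (3.55, SE 0.80, adjusted p = 0.00255) and 170 ± 9.25 in COM+Met, a fall against COM of -1.64 (SE 0.10, adjusted p = 5.61e-06) without overlap, a call lost in a fit of all 18 samples. Il6 rose from 3.57 ± 3.12 to 22.7 ± 5.71 FPKM in COM (2.75, SE 0.49, adjusted p = 0.000544). Il1a rose by 2.61 (SE 0.69, adjusted p = 0.007) in COM with overlapping ranges, a call lost without COM-4, COM-5 and COM-6 and with sample weights. Tnf was higher in COM+Met, at 410 ± 31.3 FPKM, than in COM, at 193 ± 120 (1.33, SE 0.34, adjusted p = 0.0226). This call was lost without COM-2 and in a fit of all 18 samples. The interleukin 1 receptor Il1r1 fell from 2.48 ± 0.918 in COM to 0.589 ± 0.152 FPKM in COM+Met (-1.09, SE 0.16, adjusted p = 0.00103). That call was lost without COM-3 and with pseudocount 5.

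Of 20 transcription regulators of acute-phase genes tested, 2 were called higher and 3, Fos, Cebpa and Cebpd, lower in COM against NC (median -0.0024). In COM+Met against COM, limma called 0 higher and 1 lower (median -0.13), with 7 at an unadjusted p below 0.05. In COM+Met against NC, 2 were called higher and 4 lower (median -0.10). Socs3, the feedback inhibitor of interleukin 6 signalling, rose from 15.1 ± 8.96 to 58.1 ± 39.5 FPKM in COM (1.90, SE 0.50, adjusted p = 0.00641). Its call was lost without COM-4, COM-5 and COM-6 and with sample weights, and Socs3 was at 69.3 ± 2.30 FPKM in COM+Met. Fos, a subunit of AP-1, fell from 19.4 ± 2.18 to 4.59 ± 0.720 FPKM (-1.87, SE 0.11, adjusted p = 6.38e-08). Fosl2 was the 1 called gene in COM+Met against COM, at 21.4 ± 11.3 and 8.58 ± 1.70 FPKM (-1.06, SE 0.31, adjusted p = 0.0391), and 11 of 23 other settings lost the call. Cebpb, which drives acute-phase genes through the C/EBP motif, averaged 30.8, 33.6 and 29.5 FPKM in NC, COM and COM+Met. With size factors, 20 genes of these lists together were called higher and 12 lower in COM against NC, in place of 15 and 17.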

How the data were processed

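The 18 BMDM samples were grouped by their labels into NC, COM and COM+Met. The authors deposited FPKM per gene and sample, made with a program and annotation not given in the sources used here. In the submitters' processing notes stand Bowtie 0.12.2, mm8 and mm9, with no role for any of them. Values of low genes did not fall on steps of whole reads, so the depth is unknown. The 7 genes and all gene lists were chosen with earlier results of these data known.

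Values were taken as log2(FPKM + 1). Genes averaging 1 FPKM or more over both groups of a comparison were fitted with limma 3.58.1 (lmFit, eBayes with trend; two-sided) under R 4.3.3, adjusted over all of them by Benjamini-Hochberg and called at an adjusted p below 0.05 and at least 2-fold. The fit was tested on simulated data. SE is that of the fit and SD that of the FPKM values. For each list, the genes named are the 3 called genes with the largest difference in a comparison, of which some are not reported here, and others given as levels, such as Crp, Cd163, Elane and Cebpb, were picked after their values were seen. Of each marker list, the most abundant gene is named. Of the 25926 genes, 3890 had no Ensembl identifier. The 7 genes matched GENCODE M21 by identifier, on GRCm38, which is not a build of the notes. No pair of sample columns was identical. Alternatives were other pseudocounts, filters, scalings, sample weights, a replicate block, a joint fit and samples left out. Tables and plots used matplotlib 3.10.9, numpy 2.4.6 and pandas 2.3.3 in Python 3.11.15.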

Additional observations from a re-analysis of the deposited data

Results flagged for a closer look

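Of the 21 sets of 6 values formed by 7 genes in 3 groups, 3 held a sample far from the other 5 by Dixon's criterion, the gap to the nearest sample divided by the range (0.71, 0.929 and 0.823 in the order given here). For independent sets from a normal distribution, about 1 in 20 would do so by chance. The sets here share their samples, and 2 of the 3 flags fall on 1 sample, so that rate does not apply to them. Hp measured 334.9 FPKM in COM-6, against 653.1 to 782.8 in the other COM samples. Wfdc17 measured 376.5 FPKM in COM+Met-1, against 257.6 to 266.0 in the other COM+Met samples, and Slpi measured 282.2 FPKM in the same sample, against 113.4 to 143.3. COM+Met-1 also had the highest sum of neutrophil markers in its group, 151.3 FPKM against 92.7 to 114.0, and the part of this in the 2 values was not tested.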

How the results depend on the processing

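Of the 21 differences of the 7 genes, 17 kept their direction in every alternative and 15 kept their call. The direction of Ptx3 in COM against NC, Wfdc21 in COM against NC, Lcn2 in COM+Met against COM and Slpi in COM+Met against NC turned in 2, 1, 1 and 7 alternatives. The Slpi call in COM against NC was lost without NC-5 (1.99) and without both NC-5 and NC-6 (1.55), and that in COM+Met against COM in 9 of 23 alternatives, among them leaving out COM-1 (-2.06), COM-2 (-2.03) or COM-3 (-2.01), any of COM+Met-2 to COM+Met-6, and using no filter. The Ptx3 call in COM+Met against COM was lost without COM+Met-5 (0.98), in a fit of all 18 samples and with pseudocount 5 (0.75). Hp in COM+Met against NC was called without NC-1 (1.29), NC-2 (1.28) or NC-3 (1.27), in the joint fit and with size factors (1.36). With limma's sample weights, the COM against NC difference was 6.35 for Saa3 and 4.60 for Lcn2. In COM+Met against COM, sample weights and leaving out COM-4 to COM-6 gave 1.27 and 1.32 for Saa3, -0.05 and 0.01 for Lcn2, -1.32 and -1.28 for Wfdc17, -3.19 and -3.21 for Wfdc21, and -3.76 and -3.74 for Slpi, which made Saa3 and Wfdc17 called. The cause was not tested. Over all genes, 1926, 230 and 2078 were called in COM against NC, COM+Met against COM and COM+Met against NC. Pseudocount 5 gave 980, 90 and 1117, and pseudocount 0.1 gave 370 in COM+Met against COM, where sample weights gave 719 and leaving out COM-4 to COM-6 gave 771. Of the listed genes, 12 were called in that comparison and 7 with pseudocount 5. With a filter of at least 5 FPKM, Ptx3 had no value in COM against NC. Leaving out 1 sample kept the count of calls between 182 and 300 in COM+Met against COM.

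Deviations of same-numbered samples correlated at -0.114 to -0.026 between NC and COM, -0.106 to 0.057 between NC and COM+Met and -0.222 to 0.034 between COM and COM+Met, and at most 1 of 6 samples matched its own number best. The labels do not say whether same-numbered samples belong together, and these values over all genes cannot settle it. In a fit with a block for the replicate number, 1920, 202 and 2080 genes were called, and the call of none of the 7 genes turned. In COM against NC the block took the SE from 0.75 to 0.28 for Slpi and from 0.51 to 0.35 for Hp. It went from 0.41 to 0.2 for Wfdc21, 0.3 to 0.21 for Wfdc17 and 0.43 to 0.39 for Ptx3. For Saa3 and Lcn2 the SE rose, from 0.57 to 0.66 and from 0.39 to 0.47.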
